A study of Mus musculus with 3186 samples.

Results

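Arterial endothelial cells of the adult mouse brain were described from single cells sorted by a Cldn5(BAC)eGFP reporter, a transgene in which regulatory sequence of the tight junction gene Cldn5 drives green fluorescent protein. A cell counted as arterial when at least 3 of the 5 genes Bmx, Gkn3, Sema3g, Vegfc and Efnb2 reached 20 CPM, where CPM is the read count of a gene scaled so that all counts of the cell sum to 1000000. By this rule 181 of 1445 Cldn5-eGFP cells were members, 12.5% (exact binomial 95% interval 10.9 to 14.3%), out of 3186 cells in the whole series. The members were chosen by measured values of these same cells, so every difference between members and other cells is a description with no test.

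All cells came from C57BL/6 mice 12 to 15 weeks old and were sorted singly into 384-well plates, and their RNA was read by Smart-seq2, a full-length method without molecular tags. The 1445 cells carried only the Cldn5(BAC)eGFP reporter as far as the labels say, and lay on 4 plates named EC3, EC4, EC5 and EC6. The remaining cells of the series carried Pdgfrb(BAC)eGFP with NG2dsRed (1484 cells) or Pdgfra-H2BGFP (257 cells). No label names an animal or a vessel of origin, so the Cldn5-eGFP line was treated as 1 sample, and its 4 plates show only whether a difference recurred from plate to plate. The comparison group throughout is the other 1264 Cldn5-eGFP cells of the same plates.

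Arterial endothelium lines the vessels that carry blood under pressure towards the capillaries. It sits on an elastic layer and is surrounded by smooth muscle, to which it is coupled by gap junctions and diffusible signals. Notch signalling, through ligands such as Dll4 and Jag1 and target genes of the Hey family, is known to specify and maintain it. In the brain, transport of nutrients and exclusion of drugs across the endothelium (the blood-brain barrier) is a property of the whole vascular bed, and capillaries hold most of the exchange surface.

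Members made up 41 of 361 cells on plate EC3, 45 of 359 on EC4, 47 of 361 on EC5 and 48 of 364 on EC6, or 11.4 to 13.2% of a plate. They had a median of 369196 reads and 2917 detected genes per cell, against 344029 reads and 2593 genes in the other cells. Thinned to 100000 reads each, members had a median of 2608 detected genes against 2318. The rule itself asks for detected genes, and venous-type cells, chosen by a like rule further on, had 2545. How much of the difference comes from the rule was not tested. The summed level of 8 endothelial markers was 41539 CPM in members and 40889 CPM in other cells, and Cldn5 reached 20 CPM in every cell of both groups. Markers of mural cells and fibroblasts were low in members: 8 pericyte markers summed to 27.1 CPM with Pdgfrb at 0, 8 smooth muscle markers to 28.4 CPM with Cnn1 at 0, and 7 fibroblast markers to 2.71 CPM. Astrocyte markers (7 genes) summed to 319 CPM in members and 293 CPM in other cells, with Aqp4 and Mlc1 at 0 in members, and 301 CPM of the members' sum was Gja1, which is also an endothelial connexin. Neuronal markers (6 genes) summed to 272 CPM in members and 25.4 CPM in other cells, with Snap25 and Syt1 at 0 in members, and 267 CPM of the members' sum was Stmn2. The same sums in the Pdgfrb-eGFP/NG2-dsRed cells were 53329 CPM for pericyte and 11773 CPM for smooth muscle markers. At least 2 pericyte or smooth muscle markers reached 20 CPM in 6 of 181 members and in 30 of 1264 other cells, and no doublet caller was run.

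The 5 genes of the rule overlapped only in part. Gkn3, encoding a secreted gastrokine, reached 20 CPM in 174 of the 181 members, Bmx, a cytoplasmic tyrosine kinase, in 155 and the transmembrane ephrin ligand Efnb2 in 127. The semaphorin Sema3g and the lymphatic growth factor Vegfc reached it in 100 and 95 members. Among all 1445 cells, 933 had none of the 5 genes at 20 CPM, 227 had 1, 104 had 2, 98 had 3, 58 had 4 and 25 had all 5. The counts thus form a falling series with no gap at the border of the rule. Just inside it, cells with exactly 3 genes held 3070 CPM of Gkn3 and 485 CPM of Bmx. Just outside, cells with exactly 2 genes held 1039 CPM of Gkn3 and 370 CPM of Bmx. These 5 genes and the row for the green fluorescent protein are left out of the counts of called genes and of the lists that follow.

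To describe the arterial programme, reads were summed over the members and over the other cells of each plate. A gene was called higher or lower when the ratio of pooled CPM, with 1 CPM added to both sides, was at least 2-fold over all plates and at least 2-fold the same way on each of the 4 plates. Of 7596 genes with at least 20 CPM in either group, 129 were called higher (1.7%) and 98 lower (1.29%). The median log2 ratio of all genes counted was 0.01. Pooled levels are printed with counting error left out, since the exact Poisson 95% interval of a pool is narrow (377.7 to 387.1 CPM for Gja4) and covers only counting error of reads, which without molecular tags are not independent molecules.

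Several of the 15 genes with the largest ratios among those called higher encode matrix or cell junction proteins, and these are given first. Mgp (chromosome 6, 136872435 to 136875823 of mm10), which encodes matrix Gla protein, an inhibitor of calcification in the arterial wall, was at 415, 395, 564 and 453 CPM in members on plates EC3 to EC6. The other cells held 3.59, 0.863, 66.5 and 23.2 CPM of it, a log2 ratio of 4.24 over all plates (3.07 to 7.73 on single plates). The highest plate of the other cells was thus below the lowest plate of the members. Col18a1, encoding collagen XVIII of the vascular basement membrane, was at 247, 170, 286 and 117 CPM against 12.1, 5.88, 21.9 and 7.45 CPM (log2 ratio 3.99). Fbln2, the matrix glycoprotein fibulin-2, was at 257, 189, 349 and 218 CPM against 30.5, 20.3, 44.0 and 24.0 CPM, and its log2 ratio of 3.05 stayed between 2.96 and 3.15 on every plate. Dsp, encoding desmoplakin, a plaque protein that anchors intermediate filaments, was at 84.4, 89.0, 193 and 145 CPM against at most 8.31 CPM on any plate of the other cells. The pooled levels of the groups did not overlap for any of these genes, which their choice by ratio on every plate largely fixes. Each of them was unread in more members than not. Mgp had 0 reads in 122 of the 181 members, Dsp in 124, Col18a1 in 94 and Fbln2 in 93.

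Genes of signalling and calcium handling formed a further share of the 15 largest differences. Gja4 (chromosome 4, 127311421 to 127314039 of mm10), encoding the gap junction protein connexin 37, was at 450, 388, 452 and 256 CPM in members and at 60.5, 36.5, 12.1 and 21.3 CPM in other cells (log2 ratio 3.49). Tmem100, a transmembrane protein induced by BMP signalling through ALK1, was at 272, 422, 826 and 682 CPM against 42.3, 41.5, 52.8 and 50.6 CPM (log2 ratio 3.55). Both genes were read at 20 CPM in more than every second member, 53.6% for Gja4 and 56.9% for Tmem100, against 5.78% and 6.65% of other cells. Gper1, a G protein-coupled receptor for oestrogen, was at 187 to 325 CPM on the plates of members and at 5.74 to 29.2 CPM on those of other cells (log2 ratio 3.70). Atp2a3, a calcium pump of the endoplasmic reticulum, was at 113 to 244 CPM against 12.6 to 23.6 CPM (log2 ratio 3.35). Ace, the angiotensin-converting enzyme that makes the vasoconstrictor angiotensin II, was at 85.1, 85.4, 69.7 and 66.6 CPM against 11.6, 10.6, 7.71 and 5.96 CPM (log2 ratio 2.95). It reached 20 CPM in 36.5% of members and 6.09% of other cells. Gper1 had 0 reads in 123 of the 181 members and Atp2a3 in 95.

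The rest of the 15 have less familiar roles in vessels. The largest ratio belonged to Manr, listed by RefSeq as the long non-coding RNA Mannr on chromosome 3 (29891017 to 29924191 of mm10), with 85.4, 96.5, 34.1 and 180 CPM in members and at most 3.80 CPM on any plate of other cells (log2 ratio 5.40). Stmn2, a regulator of microtubules known from neurons, was at 263, 98.4, 378 and 314 CPM against 14.5, 8.55, 32.3 and 17.5 CPM (log2 ratio 3.81). Egfl8, a secreted protein with EGF-like repeats, was the most widely read of the 15, at 20 CPM in 65.2% of members and 10.9% of other cells, with a log2 ratio of 3.89. Egfl8 shares exon bases with Agpat1 on the opposite strand and with Gm20460 on its own strand in the annotation, so its reads could come from more than 1 gene. Completing the set were Fhl1, a LIM domain protein, Syt15, a member of the synaptotagmin family, and Nr4a2, an orphan nuclear receptor. Their log2 ratios were 4.27, 3.83 and 2.82. Manr and Stmn2 each had 0 reads in 110 of the 181 members, Fhl1 in 118, Syt15 in 108 and Nr4a2 in 111.

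**Figure D1:**
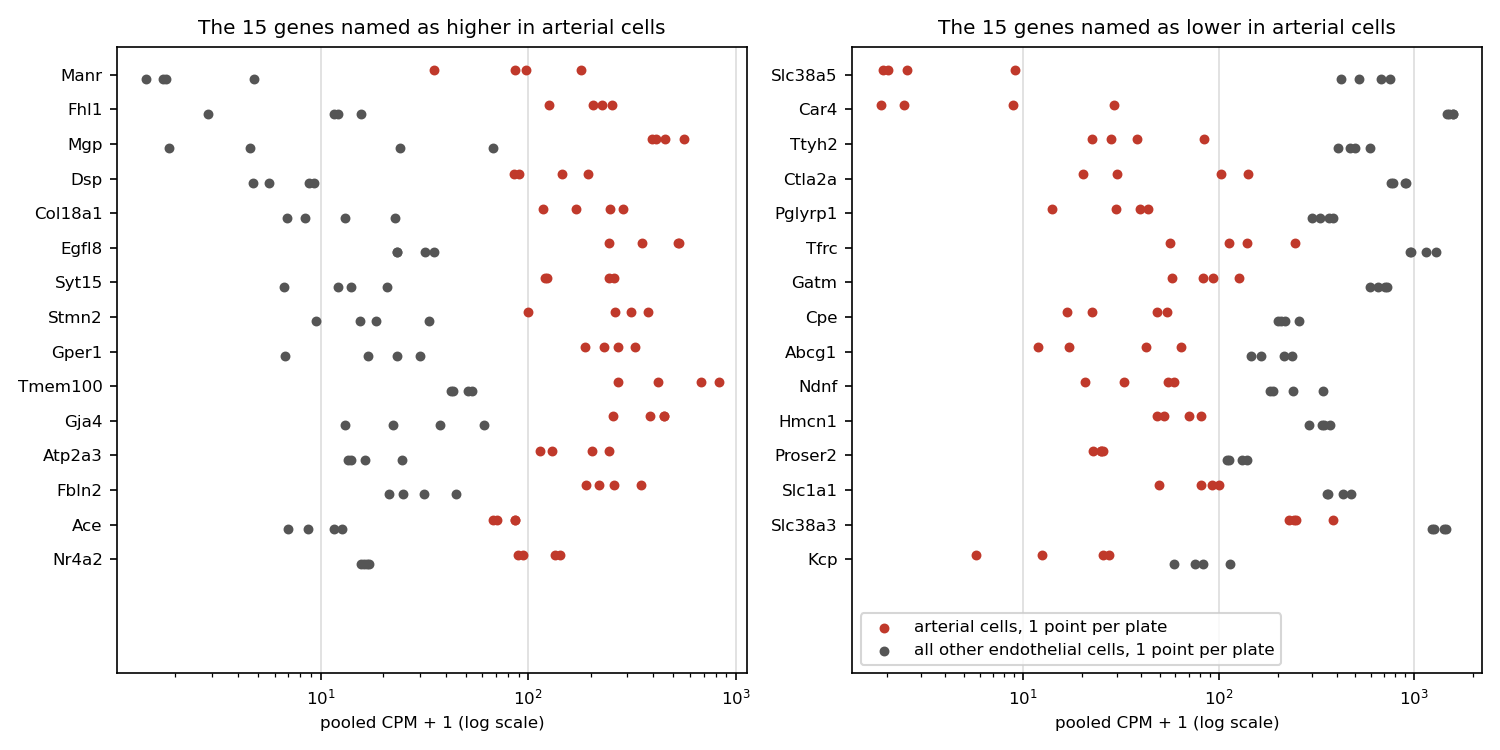
Pooled CPM plus 1 (horizontal log axis) of the 15 genes named as higher (left) and the 15 named as lower (right) in arterial cells. Each red point is the pool of arterial cells of 1 plate. Each grey point is the pool of all other endothelial cells of that plate. For all 30 genes the red and grey points do not overlap, which their choice as the largest ratios among called genes largely fixes.

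Promoters were compared because these genes differed together. RefSeq gives a window of 250 bases before to 50 bases after the start for 86 of the 129 genes called higher (119 windows, GRCm38.p6, which is mm10) and for 70 of the 98 called lower (93 windows). The 250 bases before the RefSeq start of 3 genes called higher and 2 called lower are printed 5′ to 3′ on the strand of the gene. They lie at chr4:127314040-127314289 (Gja4, minus strand), chr5:139422929-139423178 (Gper1, plus strand), chr11:72960919-72961168 (Atp2a3, plus strand), chrX:8271131-8271380 (Slc38a5, plus strand) and chr11:84957504-84957753 (Car4, plus strand). RefSeq starts can differ from the gene positions from GENCODE given in this report. By those positions nearly all of the Slc38a5 window lies inside the gene, and Car4 begins some bases after its window ends. Capitals mark any match to 1 of 5 motifs, on either strand. All but Gja4 hold a match, while most such windows available for the named genes hold none.
Gja4: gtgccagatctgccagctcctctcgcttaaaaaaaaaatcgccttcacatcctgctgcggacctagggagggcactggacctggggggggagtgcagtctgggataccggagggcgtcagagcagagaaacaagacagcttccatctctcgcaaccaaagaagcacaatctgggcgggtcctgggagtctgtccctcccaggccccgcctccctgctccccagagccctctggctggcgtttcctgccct
Gper1: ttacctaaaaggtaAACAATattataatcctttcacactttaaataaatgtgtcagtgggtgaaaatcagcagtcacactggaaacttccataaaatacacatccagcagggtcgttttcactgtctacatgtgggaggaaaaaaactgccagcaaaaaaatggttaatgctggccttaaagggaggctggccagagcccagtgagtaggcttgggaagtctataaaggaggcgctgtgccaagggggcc
Atp2a3: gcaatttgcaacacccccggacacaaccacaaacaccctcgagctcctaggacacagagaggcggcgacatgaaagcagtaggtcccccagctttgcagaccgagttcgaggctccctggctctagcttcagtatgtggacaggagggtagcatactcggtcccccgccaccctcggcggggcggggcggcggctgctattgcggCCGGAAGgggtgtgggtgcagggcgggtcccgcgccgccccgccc
Slc38a5: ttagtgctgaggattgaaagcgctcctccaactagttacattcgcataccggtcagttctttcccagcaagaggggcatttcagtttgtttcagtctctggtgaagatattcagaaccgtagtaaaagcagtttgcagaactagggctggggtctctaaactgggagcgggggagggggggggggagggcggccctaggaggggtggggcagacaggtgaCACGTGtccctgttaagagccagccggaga
Car4: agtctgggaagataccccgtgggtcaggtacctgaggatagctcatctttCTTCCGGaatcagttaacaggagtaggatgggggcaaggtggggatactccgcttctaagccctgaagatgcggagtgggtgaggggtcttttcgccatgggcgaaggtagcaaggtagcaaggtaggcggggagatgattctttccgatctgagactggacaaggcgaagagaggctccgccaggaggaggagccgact

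The motifs were GTGGGAA for RBPJ, the DNA-binding partner of Notch, AACAAT for SOX factors, CCGGAAG for ETS factors, CACGTG for E-box factors and TGACTCA for AP-1, and a match to one of these cannot lie inside a match to another. In the sequences shown, Gper1 holds a SOX match beginning 236 bases before the RefSeq start and Atp2a3 an ETS match at 45 bases. Slc38a5 holds an E-box at 30 bases, which lies inside the gene by its GENCODE position. Car4 holds an ETS match, on the opposite strand, at 200 bases, while Gja4 holds none of the 5. The RBPJ motif was in 5.88% of windows of genes called higher, 8.60% of those called lower, 5.86% of the 7574 windows of genes counted and 6.38% of all 32851 windows. The SOX motif was in 9.24% and 9.68% of windows of genes called higher and lower, against 5.81% for genes counted and 10.7% for all windows. The E-box was in 8.40% and 12.9%, against 10.2% for genes counted, and AP-1 in 3.36% and 5.38%, against 3.49%. The ETS motif was in 2 of 119 windows of genes called higher (1.68%) and 8 of 93 of genes called lower (8.60%), against 19.2% for genes counted and 8.86% for all windows. These are counts of letters in windows and were not tested.

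Among 23 gene lists, the elastic fibre list had the largest share of genes called higher. Elastic fibres give arteries their recoil, with Eln encoding the elastic core, Fbn1 the microfibrils around it and fibulins the links between them. Of 18 genes in the list 7 were counted, and 5 of these were called higher and 0 lower (Eln, Fbln2, Fbln5, Fbn1 and Mgp), with a median log2 ratio of 3.71. Eln was at 42.1, 26.4, 89.9 and 54.3 CPM in members and at 3.12, 1.36, 3.85 and 4.36 CPM in other cells. Fbln5, fibulin-5, was at 246, 159, 414 and 253 CPM against 3.10, 0.0291, 40.3 and 5.31 CPM. Both were read in few members: Eln reached 20 CPM in 22.7% and Fbln5 in 17.1% of them. Ltbp4, which binds latent TGF-beta and fibulins, was read in nearly all cells and fell just short of the call, at 1388 against 667 CPM with plate log2 ratios from 0.97 to 1.18.

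Connexins, which form the gap junctions between neighbouring cells, were split by member. Of 4 counted genes 2 were called higher and 0 lower. Beside Gja4, described above, Gja5 (connexin 40) was at 7.01, 28.5, 29.7 and 35.6 CPM against 0, 0.0097, 5.08 and 0.739 CPM, and reached 20 CPM in 7.18% of members. Gja1 (connexin 43) was at 301 CPM in members and 242 CPM in other cells, and Gjc1 (connexin 45) at 59.1 and 95.6 CPM, neither of them called.

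In the Notch pathway 1 of 17 counted genes was called higher, the target Hey1 (chromosome 3, 8663359 to 8667256 of mm10), and 0 lower. Hey1 was at 372, 349, 447 and 590 CPM in members and 62.5, 87.2, 104 and 92.6 CPM in other cells (log2 ratio 2.36). The ligands Jag2, Jag1 and Dll4 had log2 ratios of 1.48, 1.14 and 0.78 and the receptors Notch4 and Notch1 of 0.86 and 0.28, all short of 2-fold on at least 1 plate. Hes1, another target, had a log2 ratio of -0.11. The list's median was 0.23.

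Genes of vessel tone and of guidance were called singly and in both directions. Of 17 counted vasoactive genes, 3 were called higher (Ace, the cation channel Trpv4 and the ATP receptor P2ry1) and 1 lower (Ddah1, which breaks down an inhibitor of nitric oxide synthase). Trpv4 was at 106 against 18.8 CPM and Ddah1 at 17.1 against 126 CPM. Trpv4 had 0 reads in 126 of the 181 members and P2ry1 in 162, while Ddah1 had 0 reads in 909 of the 1264 other cells. Nos3, endothelial nitric oxide synthase, was at 315 against 378 CPM, and Edn1, the vasoconstrictor endothelin-1, at 544 against 163 CPM with plate log2 ratios from 0.57 to 2.28, so neither was called. Of 14 guidance genes, the netrin receptor Unc5b was called higher (156 against 48.2 CPM) and the semaphorin and VEGF co-receptor Nrp2 lower (5.43 against 65.4 CPM). Nrp2 was unread in 966 of the 1264 other cells. In the IGF list 2 of 5 counted genes were called higher and 0 lower, the binding proteins Igfbp3 (117 against 4.91 CPM) and Igfbp4 (91.4 against 12.0 CPM). Igfbp3 was unread in 125 of the 181 members and Igfbp4 in 144.

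Basement membrane genes were called in both directions, 2 of 15 higher (Col18a1 and the laminin chain Lama3) and 2 lower (Nid1 and Fn1). Lama3 had 0 reads in 141 of the 181 members, and Nid1 in 1001 of the 1264 other cells. Fn1, fibronectin, was at 464 against 1105 CPM, while Col4a1, a main collagen of the membrane, was at 399 and 383 CPM. Of 12 VEGF, angiopoietin, apelin and PDGF genes 0 were called higher and 3 lower: the Tie2 ligand Angpt2 (13.1 against 87.8 CPM), the peptide Apln (2.63 against 21.1 CPM) and its receptor Aplnr (0.121 against 28.4 CPM). All 3 were unread in most cells of both groups. Angpt2 had 0 reads in 1098 of the 1264 other cells, Apln in 1205 and Aplnr in 1191. Kdr, the main VEGF receptor, was at 328 against 677 CPM and was not called, since 1 plate or more stayed under 2-fold. In the Wnt list Dkk2 was called higher (32.2 against 3.47 CPM) and the pathway targets Apcdd1 and Nkd1 lower (84.0 against 288 CPM and 80.6 against 279 CPM), out of 18 genes counted. Few members carried the Dkk2 reads, since 167 of the 181 had none.

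Genes of exchange across the endothelium held the largest ratios among the genes called lower. Slc38a5 (chromosome X, 8271133 to 8280179 of mm10), a transporter of glutamine and related amino acids, was at 1.55, 8.11, 1.03 and 0.927 CPM in members and at 752, 675, 518 and 420 CPM in other cells (log2 ratio -7.30). Car4 (chromosome 11, 84957786 to 84966044 of mm10), a carbonic anhydrase on the cell surface, was at 0.868, 28.1, 1.46 and 7.91 CPM against 1583, 1571, 1499 and 1476 CPM (log2 ratio -7.23). Both were rarely read at this level in members: 2 of 181 members reached 20 CPM for Slc38a5 and 6 for Car4, against 41.9% and 71.3% of other cells. Slc38a5 is also 1 of the genes that define the venous-type cells described further on, all of which are among the other cells.

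Of 25 counted blood-brain barrier transporters, 9 were called lower and 0 higher, with a median log2 ratio of -0.99. They were the large neutral amino acid transporter Slc7a5 and its partner Slc3a2, the lactate transporter Slc16a1, the organic anion transporter Slc22a8, the transferrin receptor Tfrc, the glutamine carriers Slc38a3 and Slc38a5, the nucleoside transporter Slc29a1 and the iron exporter Slc40a1. Tfrc, which takes up iron-loaded transferrin, was at 112, 244, 55.3 and 138 CPM in members and at 961, 1295, 950 and 1150 CPM in other cells (log2 ratio -2.99). Slc7a5 was at 630, 388, 204 and 321 CPM against 1929, 1625, 1565 and 1383 CPM (log2 ratio -2.09), and Slc38a3 had a log2 ratio of -2.29. Members were below other cells on each plate for all 3 genes, as the call rule demands.

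The other 16 transporters were not called. Some of them were also lower over all plates but fell short of 2-fold on at least 1 plate: Slc7a1, a carrier of cationic amino acids, was at 309 against 748 CPM (log2 ratio -1.27), the organic anion transporter Slco2b1 at 340 against 808 CPM (-1.24) and the thiamine transporter Slc19a3 at 173 against 395 CPM (-1.19). The taurine transporter Slc6a6 had the opposite direction, at 5073 against 3454 CPM (log2 ratio 0.55). Others were at close to the same level. Slc2a1, the glucose transporter GLUT1, was at 7209, 7633, 6907 and 6912 CPM in members and 7114, 7425, 7641 and 7089 CPM in other cells, a log2 ratio of -0.03, and these ranges overlapped. The efflux pump Abcb1a (P-glycoprotein) was at 955 against 1111 CPM and the thyroid hormone transporter Slco1c1 at 3009 against 2518 CPM. None of 16 tight and adherens junction genes was called, with a median log2 ratio of -0.09, and Ocln, encoding occludin, was at 545 against 681 CPM.

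**Figure D2:**
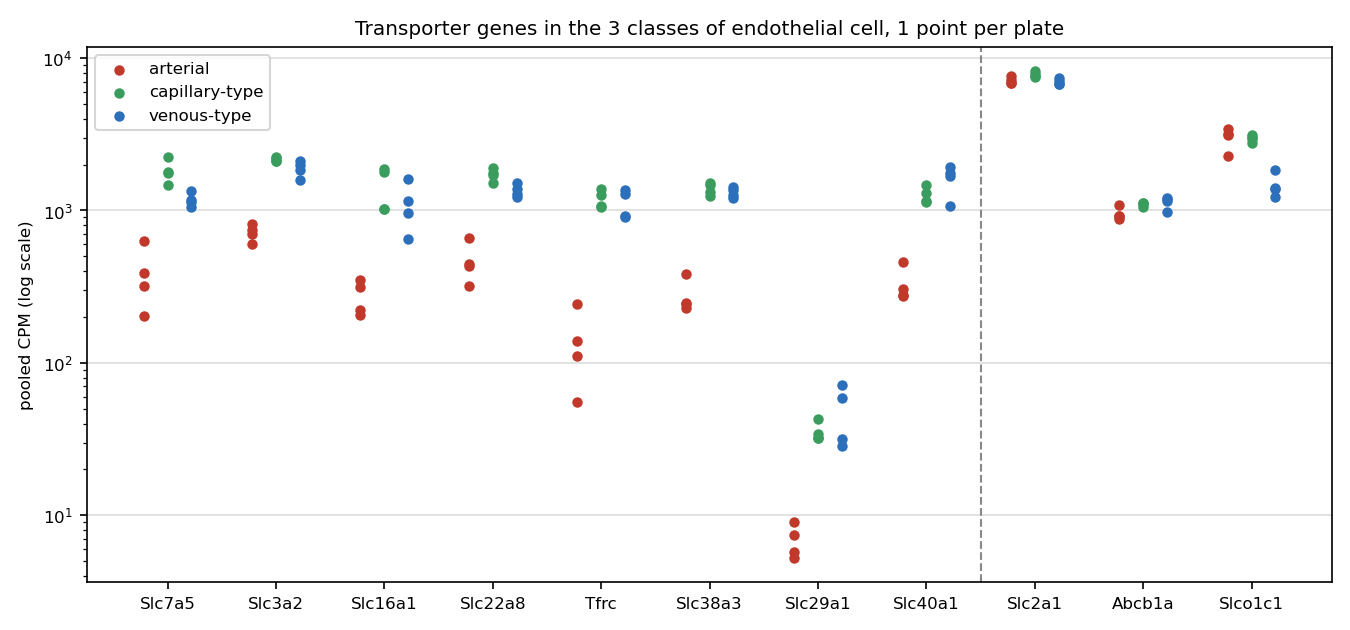
Pooled CPM (log axis) of 8 transporter genes called lower in arterial cells (left of the dashed line) and 3 that were not (right), with 1 point per plate for arterial, capillary-type and venous-type cells. Arterial points lie below those of both other classes for the 8 genes, while Slc2a1 is at 7149.8, 7792 and 7059 CPM over all plates of the arterial, capillary-type and venous-type cells.

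Other genes among the 15 lowest were Ttyh2, a chloride channel of the tweety family (log2 ratio -3.56), Ctla2a, an inhibitor of cathepsins (-3.55), and Pglyrp1, a peptidoglycan recognition protein (-3.41). Ctla2a has a close copy, Ctla2b, in the same table, and counting could have divided reads between them. It also shares exon bases with Gm49391 and Gm49393 on its own strand. Gatm, which catalyses the first step of creatine synthesis, was at 125, 92.1, 56.6 and 81.8 CPM in members and 706, 721, 648 and 594 CPM in other cells. Abcg1, which exports cholesterol, had a log2 ratio of -2.55, the processing enzyme Cpe of -2.61 and the glutamate transporter Slc1a1 of -2.32. Ndnf, Hmcn1, Proser2 and the BMP modulator Kcp had log2 ratios of -2.50, -2.41, -2.33 and -2.27. In each case every plate of the members was lower than every plate of the other cells, which the choice of these genes by their ratios largely fixes.

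Of 19 immediate early and stress genes, 4 were called higher and 0 lower. Their median log2 ratio was 0.72. Fos was at 1504, 1095, 1397 and 805 CPM in members against 430, 401, 550 and 324 CPM, and Nr4a1 at 436, 350, 729 and 594 CPM against 151, 87.2, 156 and 166 CPM. Egr1 and Gadd45b were the other called genes, with log2 ratios of 1.53 and 1.82. Jun was at 625 against 542 CPM. These genes encode transcription factors and feedback regulators that are induced rapidly by many stimuli. The count was 2 of 19, against the 4 above, when cells were thinned to 100000 reads.

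The remaining lists had 1 called gene in a direction at most. Vcam1 was called higher and Icam1 lower among 9 leukocyte adhesion genes, Tmem100 higher among 15 TGF-beta and BMP genes, Tmsb10 lower among 29 cytoskeletal genes, and Nr2f2, the venous transcription factor COUP-TFII, lower among 30 transcription factors (1.10 against 22.2 CPM). Nr2f2 had 0 reads in 1055 of the 1264 other cells and Icam1 in 1024. Sox17, a transcription factor known for its role in arteries, was at 506, 451, 470 and 624 CPM in members and at 246, 257, 265 and 259 CPM in other cells, a log2 ratio of 1.01 that was under 2-fold on at least 1 plate. No gene was called among 19 of oxidative phosphorylation, 10 of glycolysis, 10 of caveolae, 10 of coagulation, 11 of antigen presentation by MHC class I, 8 of lipid uptake and 3 of the cell cycle. The lists' shares can be read against 1.7% and 1.29% of all genes counted.

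**Figure D3:**
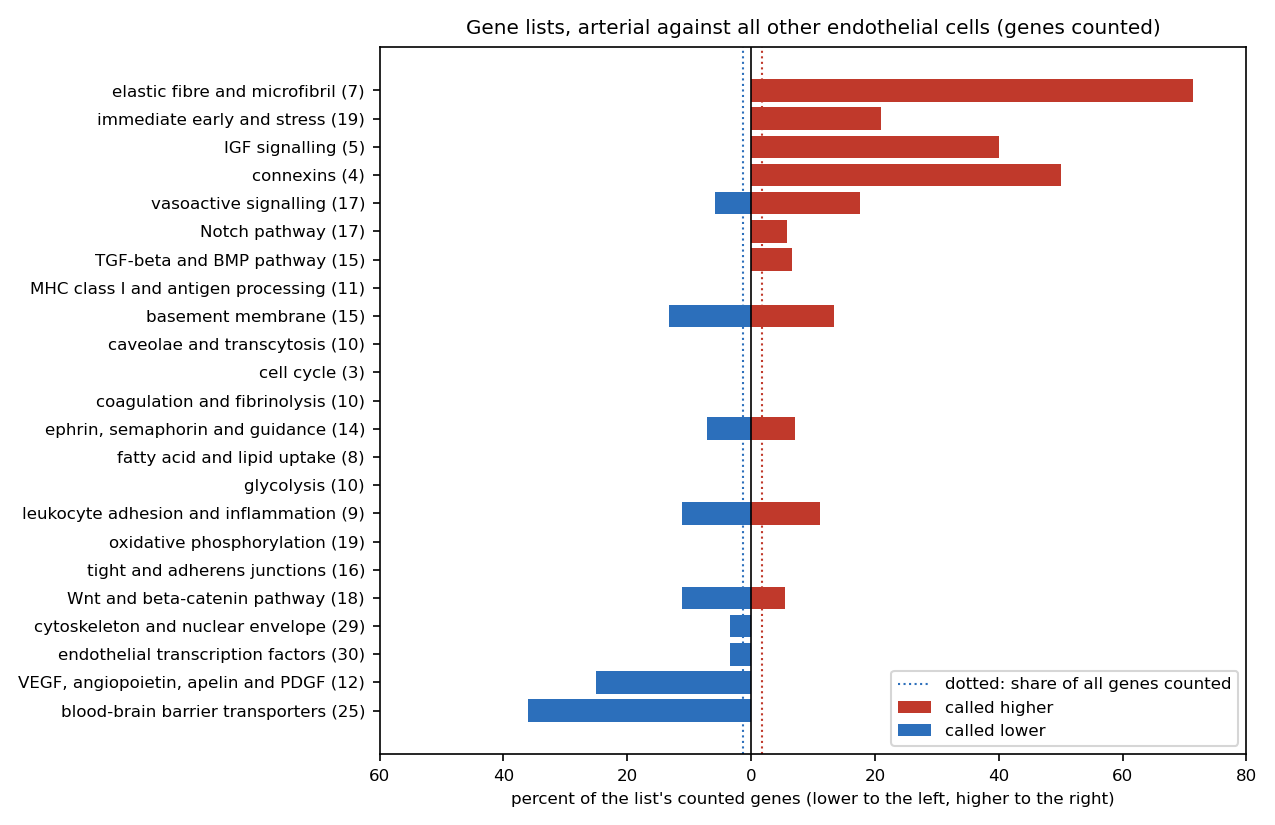
Percent of each list's counted genes called higher (right, red) or lower (left, blue) in arterial against all other endothelial cells, with the number of counted genes in brackets. Dotted lines mark the shares among all 7596 genes counted, 1.7% higher and 1.29% lower; the elastic fibre bar on the right stands for 5 of 7 genes and the transporter bar on the left for 9 of 25.

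The other endothelial cells are a mixture, so members were also set against 2 parts of it. Venous-type cells (169 cells) were non-members with at least 3 of Slc38a5, Nr2f2, Lcn2, Vwf and Icam1 at 20 CPM, and capillary-type cells (770 cells) were the remaining cells with Mfsd2a, a lipid transporter of the brain capillary, at 20 CPM. These genes were left out of the respective comparison. No cell met both the arterial and the venous rule. Against venous-type cells 163 of 7721 genes were called higher (2.11%) and 130 lower (1.68%), and against capillary-type cells 140 of 7577 were called higher (1.85%) and 94 lower (1.24%). With plate EC4 left out, the genes called against venous-type cells in either direction numbered 440 in place of 293. A gene then had to pass on 3 plates in place of 4, and the number also rose with any other plate left out. Both comparisons share the arterial cells. Called higher in both were 82 genes, 50.3% of the venous and 58.6% of the capillary list, and called lower in both were 48 genes, 36.9% and 51.1%.

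Against venous-type cells the largest ratio, with 1 CPM added to both sides, was that of Hey1 (log2 ratio 8.52). It was at 446 CPM in members and 0.214 CPM in venous-type cells, where 12 reads were found in all. Capillary-type cells held 118 CPM of Hey1. Alpl (chromosome 4, 137741733 to 137796384 of mm10), the tissue-nonspecific alkaline phosphatase that marks arterioles histochemically, was at 1403 CPM in members, 197 CPM in capillary-type and 15.0 CPM in venous-type cells. Both genes thus had their middle level in capillary-type cells. Gja1 was at 301 CPM in members, 319 CPM in capillary-type and 56.5 CPM in venous-type cells, and was called higher against the venous-type cells but not against the capillary-type cells. Syt15 was covered by 1 read in the venous-type cells, and its log2 ratio with 1 CPM added was 7.55. Without that addition its ratio is 10658, which 1 read leaves very uncertain. The counting interval, 1913 to 420963, treats reads as independent molecules, which they are not. Of the Notch list 4 of 17 genes were called higher against venous-type cells (Hey1, Dll4, Jag2 and Notch4) and 2 against capillary-type cells (Hey1 and Jag1), and 0 lower in either. Dll4 was at 380 CPM in members, 288 CPM in capillary-type and 74.3 CPM in venous-type cells.

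Genes lower in members than in venous-type cells included Car4, Rnase4, a secreted ribonuclease (5.95 against 367 CPM), the adhesion protein Flrt2 (4.59 against 253 CPM), Nrp2 (5.43 against 173 CPM) and Car14, another carbonic anhydrase (5.88 against 150 CPM). Capillary-type cells lay between the other classes for Rnase4, at 76.4 CPM, and for Nrp2, at 36.5 CPM. Car4 did not follow this order: it was at 1535 CPM in capillary-type and 1792 CPM in venous-type cells, and at 9.25 CPM in members. Ttyh2, Ctla2a, Pglyrp1 and Tfrc also stood at similar levels in venous-type and capillary-type cells (for Tfrc 1089 and 1196 CPM) and lower in members (136 CPM).

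Against capillary-type cells, Mgp had the largest ratio, at 458 against 1.48 CPM (log2 ratio 7.53). Mgp was at 7.40 CPM in venous-type cells. The elastic fibre genes were called against both classes, 5 of 7 counted against capillary-type and 6 of 7 against venous-type cells, where Ltbp4 joined the 5. Of the transporters, 10 of 24 were called lower against capillary-type and 8 of 24 against venous-type cells, and 0 higher against either. Vcam1, an adhesion molecule for leukocytes, was at 632 CPM in members, 21.8 CPM in capillary-type and 1045 CPM in venous-type cells. It was called higher than in capillary-type cells and its log2 ratio to venous-type cells was -0.72. Vwf, which defines venous-type cells in part, was at 428 CPM in members and 426 CPM in all other cells, which include the venous-type cells. The median of Vwf over single cells was 160 CPM in members and 2.41 CPM in all other cells.

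Cells were graded by how many of the 5 genes of the rule they carried. The 15 genes named in each direction were chosen for their difference between cells with 3 or more and the rest, so their levels on either side of that border are a description that the choice largely fixes. Of the 15 named as higher, 13 had a higher pooled level in cells with 1 than with none, 15 with 2 than with 1, 15 with 3 than with 2, 14 with 4 than with 3 and 14 with 5 than with 4. Gja4 was at 5.14 CPM in cells with none of the 5, then at 58.5, 208, 302, 454 and 498 CPM in cells with 1 to 5. Mgp was at 3.07 and 6.08 CPM with none and 1, and at 226, 245, 632 and 800 CPM with 2 to 5. Of the 15 genes named as lower, 14 had a lower pooled level with 1 than with none, 15 with 2 than with 1 and 15 with 3 than with 2. Among members the order was mixed: 11 of these 15 were lower with 4 than with 3 and 4 were higher, and 8 were lower with 5 than with 4 and 7 were higher. Slc38a5 was at 724, 352, 36.2, 4.44, 0.945 and 1.11 CPM with 0 to 5 of the genes. Cells with exactly 2 genes, which are outside the rule, had a median of 365666 reads per cell, and cells with 3 had 356106.

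The same 15 genes, chosen from these cells, were also counted in single cells, which shows how they are spread over members and adds no support to their choice. Of the 15 genes named as higher, a member had a median of 6 at 20 CPM, with a lowest value of 0 and a highest of 15. Other cells had a median of 0 and at most 11. At least 5 of the 15 were at 20 CPM in 111 of 181 members and in 29 of 1264 other cells. Among cells with exactly 2 of the genes of the rule this held for 20 of 104, and among cells with exactly 3 for 53 of 98. On single plates the share of members with at least 5 was 51.2, 53.3, 68.1 and 70.8%. None of the 15 was at 20 CPM in 3 members.

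**Figure D4:**
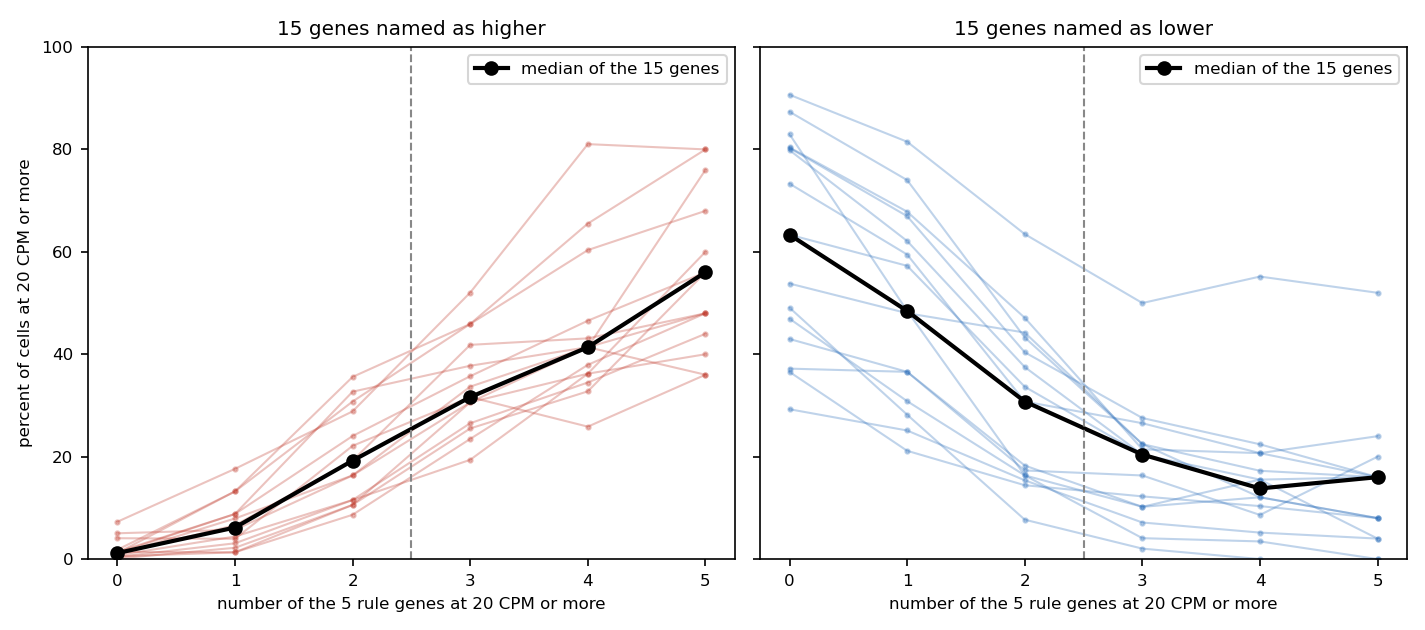
Percent of cells at 20 CPM or more (vertical axis) by the number of the 5 genes of the rule in the cell (horizontal axis), for the 15 genes named as higher (left) and as lower (right). Thin lines are single genes, the black line their median, and the dashed line the border between other cells and members; Gja4 goes from 1.18% of cells with none of the 5 genes to 68.0% of cells with all 5.

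Members differed among themselves. Over cells thinned to 100000 reads, the most variable genes with at least 100 CPM included Fos, Cyr61, Mfsd2a, Edn1, Tmem100, Ifi47, Clec14a, Prnp and Sgk1. The SD of log2(CPM + 1) was 5.24 for Fos and 4.55 for Sgk1, against a median of 3.84 over 2089 genes. Fos was at a median of 5.92 CPM and a highest value of 13453 CPM, with 48.1% of members at 20 CPM. Alpl was more even, at 20 CPM in 89.5% of members with quartiles of 468 and 1836 CPM. Slc2a1 was read in every member, with quartiles of 4391 and 9196 CPM.

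Mfsd2a was at 20 CPM in 77 of the 181 members and under it in 104, and in 35.4 to 46.7% of the members of a plate. This split is by 1 measured gene and is a description. Of 7714 genes counted, 59 were called higher (0.765%) and 75 lower (0.972%) in members with Mfsd2a. The groups of this split had medians of 377402 and 361372 reads. Of 22 counted transporters 3 were called higher and 0 lower in members with Mfsd2a: Slc7a5 (742 against 107 CPM), Slc22a8 (782 against 212 CPM) and Slco1a4 (4767 against 2274 CPM). Gatm was at 179 against 19.3 CPM, Hmcn1 at 117 against 19.9 CPM and Stra6, a membrane receptor for vitamin A uptake, at 91.0 against 8.57 CPM. Of the 15 genes named as lower in members, 5 were called higher in the members with Mfsd2a: Gatm, Hmcn1, Ndnf, Slc1a1 and Pglyrp1.

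Members without Mfsd2a carried more of the elastic fibre genes. Of 7 counted genes 3 were called lower in members with Mfsd2a and 0 higher: Mgp (51.6 against 770 CPM), Fbln5 (29.7 against 454 CPM) and Eln (6.55 against 89.9 CPM). Gja4 was at 180 against 538 CPM and Atp2a3 at 52.8 against 267 CPM, with a plate log2 ratio between -2.51 and -2.20. Gja1, in contrast, was at 469 against 171 CPM. Gcnt1, a glycosyltransferase, was not read in members with Mfsd2a and was at 59.0 CPM in those without, where it reached 20 CPM in 16.3% of cells. Of 19 immediate early and stress genes 3 were called lower and 0 higher in members with Mfsd2a: Atf3 (63.2 against 302 CPM), Nr4a1 (178 against 804 CPM) and Fosb (1.98 against 39.9 CPM). Hey1 was at 490 CPM with and 412 CPM without Mfsd2a, and Alpl at 867 and 1814 CPM, neither of them called.

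Vwf, which encodes von Willebrand factor, a mediator of platelet adhesion, was at 20 CPM in 108 members and under it in 73. Of 7701 genes counted 81 were called higher (1.05%) and 28 lower (0.364%) in members with Vwf. Elastic fibre genes were called higher in 4 of 7: Fbln5 (449 against 10.4 CPM), Mgp (722 against 75.6 CPM), Eln (82.7 against 11.7 CPM) and Fbn1 (59.2 against 21.9 CPM). Vcam1 was at 1002 against 95.9 CPM. Gja5 was at 43.1 CPM in members with Vwf and not read in those without, and reached 20 CPM in 12.0% of the members with Vwf. Col5a2, a fibrillar collagen chain, was likewise at 86.0 CPM, with 18.5% of these members at 20 CPM, and not read in those without. No transporter among 23 was called in either direction. The splits crossed only in part: 39 members had both Mfsd2a and Vwf, 38 Mfsd2a alone, 69 Vwf alone and 35 neither.

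**Figure D5:**
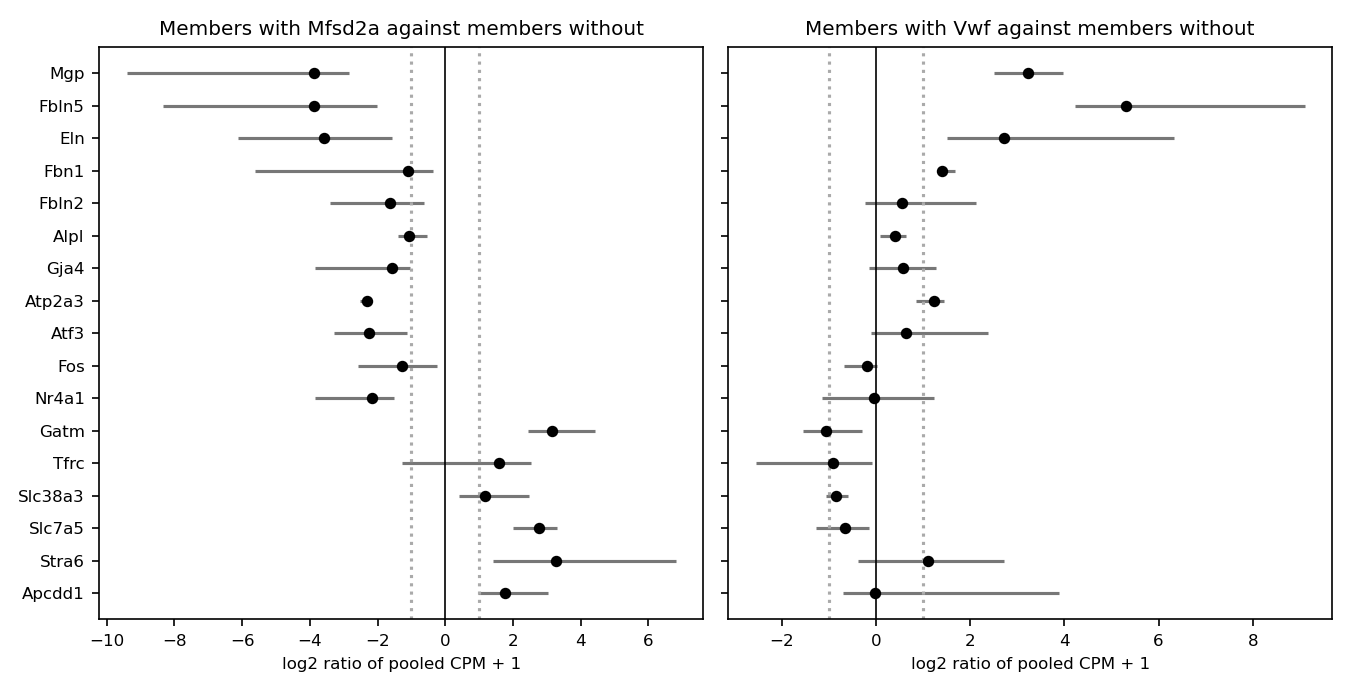
Log2 ratio of pooled CPM plus 1 between members with and without Mfsd2a (left) and with and without Vwf (right) for 17 genes. Points are the ratio over all plates, lines run from the lowest to the highest plate, and dotted lines mark 2-fold; Mgp lies at -3.87 on the left and 3.24 on the right.

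Over the 181 members, which share plates and differ in depth, Mgp had a Spearman correlation of 0.72 with Eln, 0.53 with Fbln5, 0.43 with Fbln2 and -0.47 with Mfsd2a. Fos had one of 0.67 with Nr4a1. Hey1 had correlations of 0.04 with Mgp, 0.06 with Gja4 and -0.01 with Mfsd2a. Many members were tied at 0 in these pairs: Mgp had 0 reads in 122 of the 181 members, Eln in 132 and Fbln5 in 147. The correlations are descriptions over cells of 1 sample.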

How the data were processed

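The authors' deposited table holds counts, whole numbers of reads per gene and cell, for 3186 cells and 19937 genes, 1 column per sorted cell. Reads were aligned with STAR 2.4.2a to mm10, per the submitters' processing notes, and for the gene counter, annotation and cell filters the entry is not given in the sources used here. Counts were used as deposited with no cell removed, summed per plate and group, and scaled to CPM. The members and the gene lists were chosen with earlier results of these data known. Named genes were the 15 largest log2 ratios in each direction among called genes with at least 50 CPM in the higher group and 20 CPM in 25% of its cells (8 each way for the venous-type and capillary-type comparisons, 5 each way for splits of the members), with up to 3 genes at each end of a list. List genes beyond that rule (such as Nos3, Sox17 and Vcam1) were named after their values were seen. Some genes that met these rules are not reported here. Cells were thinned to 100000 reads with seed 1. Gene positions are from GENCODE M21, where 29 of the 30 named genes were found and 7 share exon bases with another gene. Beside Egfl8 and Ctla2a these are Ace, Dsp, Hmcn1, Kcp and Slc1a1, each with a gene on the opposite strand. Python 3.11.15, numpy 2.4.6, pandas 2.3.3 and scipy 1.17.1 were used. Alternatives covered the rule, depth, scaling, pseudocount, filters and each plate left out.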

Additional observations from a re-analysis of the deposited data

How the results depend on the processing

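The counts of called genes, the ratios of the 30 named genes and 4 list counts were recomputed under up to 16 other settings. The splits by Mfsd2a and Vwf, the levels by number of rule genes, the promoter motifs, the variable genes and the correlations were not. All 480 recomputed log2 ratios of the 30 named genes kept their direction and stayed at 2-fold or more, and 38 moved by more than the SD over the 4 plates. With at least 4 of the 5 genes asked of a member, Manr, Nr4a2 and Kcp were no longer 2-fold on every plate, and with at least 2 Cpe was not. The number of members was 83 with at least 4 of the 5 genes and 285 with at least 2. With a floor of 5 CPM, 181 genes were called lower. Without the demand for 2-fold on every plate, 320 genes were called higher and 298 lower, with 1056 called against venous-type and 651 against capillary-type cells. With 1 plate left out in turn, genes called against venous-type cells numbered 415 to 440, the highest without EC4. In each of these settings a gene had to pass on 3 plates in place of 4. Why the number was highest without EC4 was not tested. Transporters called lower numbered 8 to 12, elastic fibre genes called higher 5 to 6 and connexins 2 throughout. Immediate early genes called higher were 2 with at least 4 genes, with at least 2 genes and with thinned cells, and up to 6 elsewhere. Under median-of-ratios scaling the median of all genes was 0.05. Ratios were taken within plates as well as over them. No paired analysis was possible because no result comes from a test to which a block could be added.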

Other observations

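The rule was also applied to the other sorts. Of 1484 Pdgfrb-eGFP/NG2-dsRed cells 3 met it (0.202%, exact binomial 95% interval 0.0417 to 0.590%), and of 257 Pdgfra-H2BGFP cells 1 did (0.389%, 0.00985 to 2.15%). All 4 of these cells had Cldn5 at 1000 CPM or more, a level that 78 cells of the first sort and 3 of the second reached in all. Pdgfrb was under 20 CPM in each of them, and Acta2, a smooth muscle marker, reached 20 CPM in 1 of the 3 Pdgfrb-eGFP/NG2-dsRed cells.

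Vcam1 varied between plates in the same order in both groups, at 332, 204, 1281 and 672 CPM in members and at 121, 90.9, 326 and 179 CPM in other cells on plates EC3 to EC6. It reached 20 CPM in 24.3% of members and 9.65% of other cells.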
